A study of Homo sapiens with 12 samples.

Results

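ESM1, THBD and IL13RA2 are 3 of the 8545 genes measured in SF539 and SNB19 glioma cells after transfection with siRNAs against PARK2. They were chosen by their values on the SF539 arrays. There ESM1 and IL13RA2 lay lower with both PARK2 siRNAs, and THBD with siRNA#2 alone. The SF539 changes are therefore given as a description, with no test. The SNB19 changes come from arrays that did not pick the genes and were tested, although those values had also been seen before. The SE and p of these tests draw on a spread pooled over the arrays of both lines. The table held 4 probe sets for these genes: 208394_x_at for ESM1, 203887_s_at and 203888_at for THBD, and 206172_at for IL13RA2. The suffix _x_at is the manufacturer's mark for a probe set whose probes can also match other transcripts, and ESM1 had no other probe set.

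ESM1 encodes endocan, a small secreted proteoglycan that carries a dermatan sulfate chain and is best known as a product of activated and sprouting endothelium. THBD encodes thrombomodulin, a cell surface receptor that binds thrombin and turns it towards the activation of protein C, the start of an anticoagulant pathway. IL13RA2 encodes a receptor that binds interleukin 13 with high affinity and is regarded as a decoy for the signalling receptor made of IL13RA1 and IL4R. It is known as a surface antigen of many glioblastomas.

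RNA was measured on 12 Affymetrix U133A 2.0 arrays, 2 for each of 6 groups: SF539 with PARK2 siRNA#1, PARK2 siRNA#2 or scramble siRNA, and SNB19 with the same 3. Both are established glioma lines kept in serum-containing medium. All groups received an siRNA with Lipofectamine RNAiMAX and were collected 48 h later, so no group is untransfected. Values are on a log2 scale with array medians from 5.94 to 6.14 and lower quartiles from 3.93 to 4.02, and no detection call accompanies them. Values under the lower quartile were taken as having little signal over background. PARK2 itself is not analysed here, so the knockdown was not checked.

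Replicate arrays correlated across probe sets with r from 0.991 to 0.998, the lowest for the SF539 siRNA#2 pair. Whether the 2 arrays of a group stem from separate cultures is not stated, so the p-values reflect only how these samples vary, and that variation may be technical. The number of arrays limits the precision. Of 12 glial and glioma markers measured, 10 lay above the array median on both SNB19 scramble arrays and 6 on both SF539 scramble arrays. In SF539 S100B, OLIG2, FABP7 and AQP4 lay below the lower quartile, while VIM and CD44 averaged 13.62 and 12.56 with scramble.

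The start of ESM1 is shown because ESM1 had the lowest change of all genes in SF539 for the mean of both siRNAs. The window runs from 250 bases before to 50 bases after the RefSeq start, at chr5:54985544-54985843 on the minus strand of GRCh38.p14, read 5′ to 3′ along the gene. Capitals mark matches to the motifs searched.
ESM1 promoter: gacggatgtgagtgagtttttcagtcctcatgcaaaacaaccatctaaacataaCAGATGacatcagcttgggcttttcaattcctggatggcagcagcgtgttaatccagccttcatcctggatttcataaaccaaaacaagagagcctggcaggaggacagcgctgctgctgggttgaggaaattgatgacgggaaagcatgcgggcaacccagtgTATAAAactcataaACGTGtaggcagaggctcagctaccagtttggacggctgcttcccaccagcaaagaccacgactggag

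The window was searched on both strands for 8 motifs. The TATA box letters TATAAA began at -32 from the start, and 11.95% of 27305 RefSeq promoters of the same length hold them. The E-box CANNTG matched once, at -196, and is held by 68.9% of promoters. The hypoxia element core was searched as ACGTG only, and the form GCGTG, which also lies in this window, was not searched. ACGTG, which can lie inside an E-box, matched once, at -18, and is held by 21.6% of promoters. The letters of AP-1 (TGANTCA), CRE (TGACGTCA), STAT (TTCNNNGAA), TEAD (GGAATG) and NF-kB sites were not in this window, and are held by 7.76%, 1.98%, 7.88%, 14.05% and 0.579% of promoters. A match is a run of letters and not a bound site.

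ESM1 was moderately expressed in SF539 cells with scramble and lower with siRNA#1 and lower still with siRNA#2. Its values were 5.47 and 4.70 with siRNA#1, 3.90 and 3.20 with siRNA#2, and 6.92 and 7.78 with scramble. The 3 SF539 groups did not overlap, and every value lay below every scramble value for 24.9% of all genes with siRNA#1 and 28.1% with siRNA#2. Both siRNA#2 arrays lay under the lower quartile, so the size of that change is bounded by background. The change was -2.27 ± 0.32 on the log2 scale with siRNA#1 and -3.80 ± 0.32 with siRNA#2 (SE of the fit, 2 arrays per group). For the mean of both siRNAs it was -3.04 ± 0.28, 8.20-fold lower than with scramble.

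In SNB19 ESM1 stood at background in every group. Its values were 3.15 and 3.08 with siRNA#1, 2.84 and 2.87 with siRNA#2, and 2.84 and 3.06 with scramble, at most the 10.7th percentile of an array. The change with both siRNAs was 0.04 ± 0.28 (limma adjusted p = 0.938), and a fall from such a level could not be seen. That SE pools both lines, and the SDs of ESM1 were 0.50 to 0.61 in SF539 but 0.02 to 0.15 in SNB19. Fitted on the 6 SNB19 arrays alone, the change was also not called (limma adjusted p = 0.737). The order of group means was SF539 scramble, SF539 siRNA#1, SF539 siRNA#2 and then the SNB19 groups. The SF539 siRNA#2 mean of 3.55 ± 0.50 exceeded that of SNB19 siRNA#1, 3.12 ± 0.05 (SD, n = 2 each), by less than its own SD.

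IL13RA2 was lower with both siRNAs in both lines, from very different starting levels. In SF539 its values were 5.12 and 4.56 with siRNA#1, 3.14 and 3.35 with siRNA#2, and 6.27 and 6.43 with scramble. These groups did not overlap, and the siRNA#2 arrays lay under the lower quartile. Every value lay below every scramble value for 24.9% of all genes with siRNA#1 and 28.1% with siRNA#2. Every siRNA#2 value lay below every siRNA#1 value for 27.9%. The change was -1.51 ± 0.16 with siRNA#1, -3.11 ± 0.16 with siRNA#2 and -2.31 ± 0.14, or 4.95-fold lower, with both, and the values that include siRNA#2 are limited by background.

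SNB19 made far more IL13RA2 transcript. The change there came from arrays that did not pick the gene, but its SE and p use a spread pooled with the SF539 arrays. IL13RA2 values were 10.42 and 10.31 with siRNA#1, 10.48 and 10.47 with siRNA#2, and 11.35 and 11.38 with scramble. Every siRNA array lay below both scramble arrays, as was the case for 26.4% of all genes. IL13RA2 fell by 0.94 ± 0.14 with both siRNAs (limma adjusted p = 0.00057), a 1.92-fold lower value. With siRNA#1 alone it fell by 1.00 ± 0.16 (limma adjusted p = 0.0012) and with siRNA#2 alone by 0.88 ± 0.16 (limma adjusted p = 0.0022). Among all genes 13.7% were called lower with siRNA#1 and 15.8% with siRNA#2. Both siRNAs were set against the same scramble arrays. Fitted on the 6 SNB19 arrays alone, the IL13RA2 change with both siRNAs was also called (limma adjusted p = 8.16e-05).

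The siRNAs themselves differed by 0.11 ± 0.16 in SNB19 (siRNA#2 minus siRNA#1, limma adjusted p = 0.781), where 6.06% of all genes were called. IL13RA2 was thus 1 of the 3 genes called lower in SNB19, where 17.4% of all genes were called lower and 32.8% in either direction. With arrays centred on their medians the SNB19 changes shifted upwards: the median of all genes was 0.12 in place of -0.01, and 68.3% of calls were higher in place of 47.1%. The IL13RA2 change was then -0.81 (limma adjusted p = 0.00114).

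The order of the IL13RA2 group means was SNB19 scramble, SNB19 siRNA#2 and siRNA#1, then SF539 scramble, siRNA#1 and siRNA#2. The neighbours SNB19 siRNA#2, 10.48 ± 0.01, and siRNA#1, 10.37 ± 0.08 (SD, n = 2 each), lay within the SE of their difference. SF539 cells with siRNA#2 were at 3.24 ± 0.14, the lowest of the 6 groups. The change was larger in SF539 than in SNB19 in value, and the difference between the lines was not tested, since it contains the change that picked the gene.

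**Figure D1:**
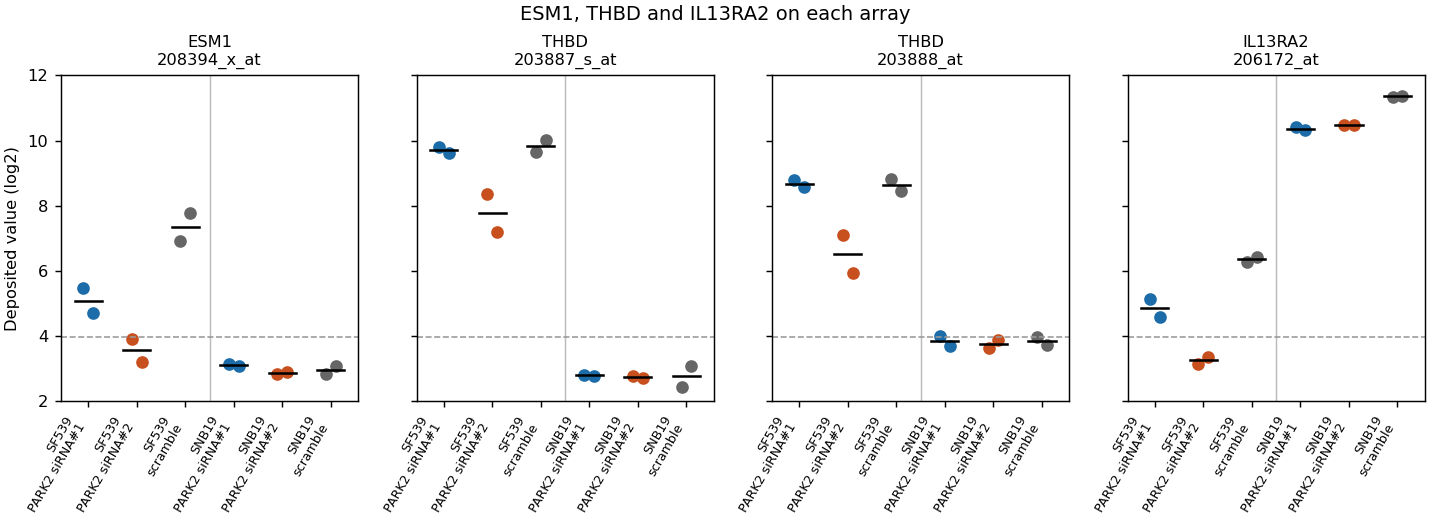
Deposited log2 values of the 4 probe sets on each of the 12 arrays, by group, with SF539 left of the vertical line and SNB19 right of it. Points are arrays, bars are group means and the dashed line is the mid-point of the lowest and highest lower quartile of the arrays. ESM1 and both THBD probe sets stand near or under that line in SNB19, where IL13RA2 is above 10 on every array.

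THBD was among the brighter transcripts of SF539 and was lower with siRNA#2, while its siRNA#1 arrays stood at the level of scramble. Probe set 203887_s_at gave 9.81 and 9.62 with siRNA#1, 8.37 and 7.19 with siRNA#2, and 9.66 and 10.01 with scramble. The siRNA#1 and scramble arrays overlapped, and both siRNA#2 arrays lay below them. Among all genes, 28.1% had every siRNA#2 value below every scramble value, and 27.9% below every siRNA#1 value. The change was -0.12 ± 0.33 with siRNA#1 and -2.05 ± 0.33, or 4.15-fold lower, with siRNA#2.

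In the second THBD probe set siRNA#2 was again the low group. 203888_at gave 8.79 and 8.57 with siRNA#1, 7.11 and 5.92 with siRNA#2, and 8.81 and 8.44 with scramble, changes of 0.05 ± 0.31 and -2.11 ± 0.31. Both probe sets differed by more than 1 between the siRNA#2 arrays, replicate 2 being the lower. Without that array the siRNA#2 change of 203887_s_at was -1.47, and without replicate 1 it was -2.64.

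In SNB19 THBD was under or near the lower quartile with all 3 siRNAs. Values of 203887_s_at were 2.80 and 2.77 with siRNA#1, 2.78 and 2.70 with siRNA#2, and 2.44 and 3.08 with scramble. The change with both siRNAs was 0.00 ± 0.28 (limma adjusted p = 0.999). Values of 203888_at lay between 3.62 and 3.99 on the 6 SNB19 arrays, the highest at the 25.7th percentile of its array, with a change of -0.04 ± 0.27 (limma adjusted p = 0.936 over all probe sets). The group order of THBD was SF539 scramble and siRNA#1, which did not differ beyond their spread (9.83 ± 0.25 and 9.72 ± 0.13, SD, n = 2 each), then SF539 siRNA#2 at 7.78 ± 0.83 and last the SNB19 groups.

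**Figure D2:**
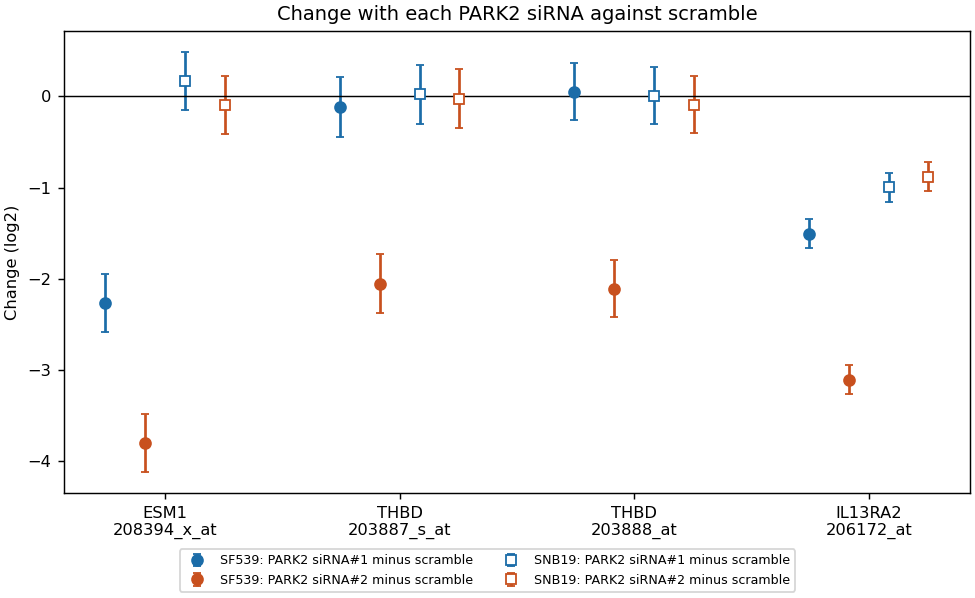
Change on the log2 scale with each PARK2 siRNA against scramble for each probe set, SF539 as filled circles and SNB19 as open squares, with the SE of the fit as bars. In SF539 the THBD probe sets lie near -2 with siRNA#2 and near 0 with siRNA#1, ESM1 lies below -2 with both siRNAs, and IL13RA2 lies below 0 in all 4 comparisons.

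Set among all genes, the SF539 values were extreme, which is how the genes came to be picked. For the mean of both siRNAs ESM1 ranked 1, IL13RA2 ranked 3 and THBD ranked 32 from the lowest of 8545 changes, and 4.01% of all genes were called lower. Higher calls made up 59.1% of the SF539 calls for both siRNAs, 59.2% for siRNA#1 and 57.1% for siRNA#2, and 46.0%, 45.1% and 44.8% with centred arrays. With siRNA#1 alone the ranks of ESM1, IL13RA2 and THBD were 4, 9 and 2135, where 1.11% of genes were called lower. With siRNA#2 alone they were 1, 2 and 7, where 6.50% were called lower. For siRNA#2 minus siRNA#1 they were 7, 5 and 2, with changes of -1.54 ± 0.32, -1.60 ± 0.16 and -1.94 ± 0.33, and 0.878% of genes were called lower. Both siRNA#2 values lay below both siRNA#1 values for all 3, as for 27.9% of genes. ESM1 and IL13RA2 had every siRNA array below both scramble arrays, as did 14.5% of all genes. In SNB19 IL13RA2 ranked 294 from the lowest.

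**Figure D3:**
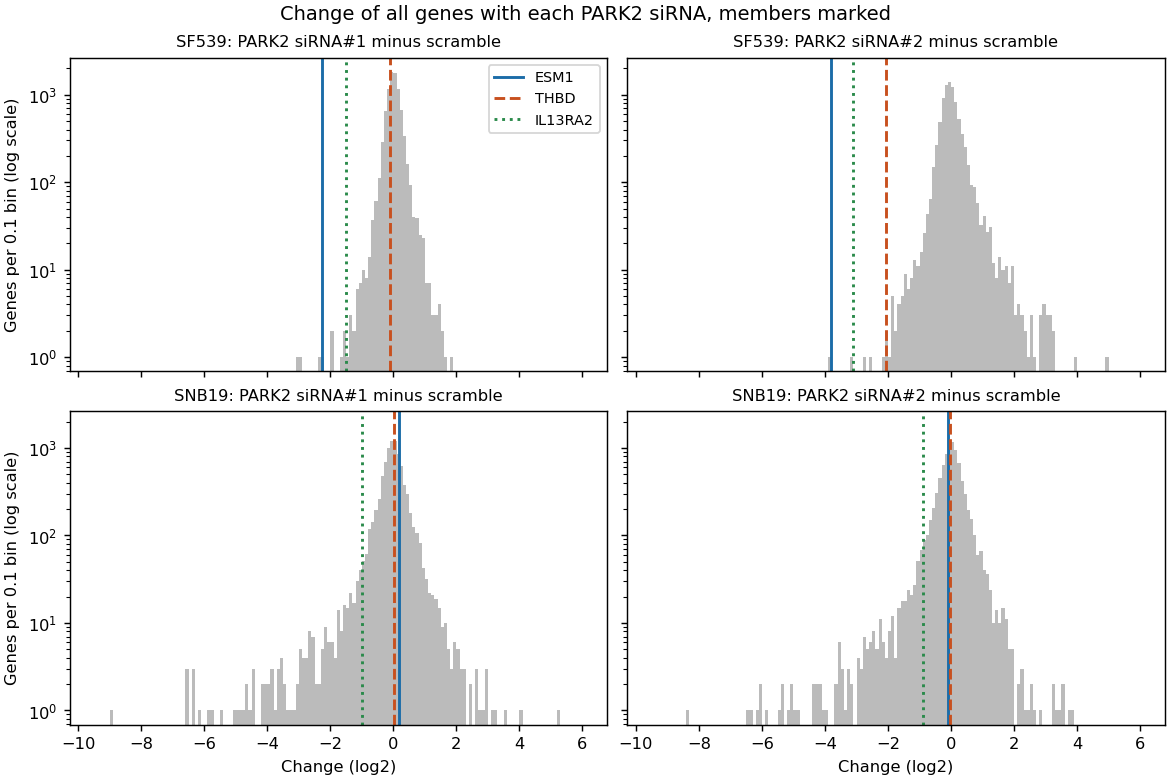
Number of genes (log axis) by change on the log2 scale, in bins of 0.1, for each siRNA against scramble in SF539 (top) and SNB19 (bottom), with ESM1, THBD and IL13RA2 as vertical lines. The SF539 lines of ESM1 and IL13RA2 lie in the lower tail with both siRNAs, that of THBD with siRNA#2 alone, and in SNB19 the IL13RA2 line stands left of the peak, inside a long lower tail.

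The levels of the lines with scramble siRNA are given as a description with no test, since the SF539 scramble arrays took part in choosing the genes. THBD was higher in SF539 than in SNB19 by 7.07 ± 0.33 with 203887_s_at and by 4.79 ± 0.31 with 203888_at. ESM1 was higher by 4.40 ± 0.32. Since both genes were near background in SNB19, the lower end of these differences is set by background.

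IL13RA2 went the other way, with a difference of -5.01 ± 0.16 (SF539 minus SNB19), or 32.2-fold lower in SF539. From the lowest of 8545 differences, IL13RA2 ranked 57, ESM1 8496 and THBD 8539. With centred arrays the median of all genes was 0.20 in place of 0.04.

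Because ESM1 and THBD are known from endothelium, its markers were read on the same arrays. The mean level of the 9 endothelial markers lay between 4.56 and 4.71 with siRNA#1, between 4.39 and 4.56 with siRNA#2 and between 4.61 and 4.64 with scramble on the SF539 arrays. It lay between 4.07 and 4.30 on the SNB19 arrays. Of the 9, only ENG, which encodes a TGF-beta co-receptor, was above the array median on both SF539 scramble arrays, at 9.42. CDH5, TEK and MMRN1 were at 3.33, 2.71 and 2.60 there, under the lower quartile.

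The mean of the fibroblast and smooth muscle markers moved with the siRNA#2 arrays in SF539. The mean level of the 8 markers was 6.84 and 7.02 with siRNA#1, 7.60 and 9.16 with siRNA#2, and 6.47 and 6.56 with scramble, 4, 5 and 4 of them being above the array median on both arrays. COL1A1, COL3A1, DCN, LUM, PDGFRB and TAGLN averaged higher with siRNA#2 than with scramble. The remaining markers of the list, ACTA2 and MYH11, hardly changed, at 4.28 and 5.67 with siRNA#2 and 4.17 and 5.55 with scramble. Replicate 2 was the higher siRNA#2 array for the mean of the markers and the lower one for THBD. The part of these markers in the SF539 changes was not tested. In SNB19 the same markers averaged 4.46 and 4.38 with siRNA#1, 5.26 and 5.22 with siRNA#2, and 4.45 and 4.42 with scramble. The mean level of the 12 glial and glioma markers in SNB19 lay between 9.41 and 9.45 with siRNA#1, between 9.54 and 9.57 with siRNA#2 and between 8.91 and 9.02 with scramble. GFAP, an astrocyte filament gene, had the largest change of this list, averaging 10.50 with siRNA#1, 10.46 with siRNA#2 and 6.90 with scramble. S100B, FABP7 and TNC were also higher with both siRNAs. PDGFRA and SOX2 were lower with both, PDGFRA averaging 10.20 with siRNA#1, 10.40 with siRNA#2 and 11.09 with scramble. The part of these markers in the SNB19 change of IL13RA2 was not tested. Fewer cells of a type and less RNA per cell cannot be told apart in such samples.

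The partners of IL13RA2 in IL-13 signalling had other patterns. IL13RA1, the signalling receptor chain, had values of 9.96 and 9.96 with siRNA#1, 9.75 and 9.68 with siRNA#2, and 9.18 and 9.11 with scramble in SNB19. In SF539 they were 9.88 and 9.84 with siRNA#1, 9.87 and 10.04 with siRNA#2, and 9.60 and 9.45 with scramble. With siRNA#1 alone the SF539 change of IL13RA1 was 0.34 ± 0.09 and not called (limma adjusted p = 0.0918). With siRNA#2 alone it was 0.43 ± 0.09 (limma adjusted p = 0.0129). For the mean of both siRNAs IL13RA1 rose where IL13RA2 was lower, by 0.69 ± 0.08 in SNB19 (limma adjusted p = 0.000121). In SF539 that mean rose by 0.38 ± 0.08 (limma adjusted p = 0.0154). The SF539 call was lost without scramble replicate 2 (adjusted p = 0.11) or siRNA#1 replicate 1 (adjusted p = 0.0503), and the mean of the IL13RA1 probe sets changed there by 0.05 (adjusted p = 0.738).

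IL4R, the other chain of the signalling receptor, showed no called change, at -0.08 ± 0.22 in SF539 (limma adjusted p = 0.875) and -0.26 ± 0.22 in SNB19 (limma adjusted p = 0.422). Its level with scramble was higher in SF539 than in SNB19 by 3.58 ± 0.26 (limma adjusted p = 1.76e-06), the opposite order to IL13RA2. Of 18 other IL-13 and IL-4 signalling genes measured, 1 was called higher and 1 lower in SF539, where 5.80% of all genes were called higher and 4.01% lower. The lower one was JAK2, a cytokine receptor kinase, at -0.48, which lost its call without any 1 array other than siRNA#2 replicate 1 (adjusted p from 0.0584 to 0.182). In SNB19 2 were higher and 4 lower, against 15.5% higher and 17.4% lower among all genes. IRS1, an adaptor of the receptor, changed by -0.92, the kinase gene JAK1 by 0.62 and the feedback inhibitor gene SOCS1 by -1.39, or -0.55 with its probe sets averaged. The list's median change was 0.06 in SF539 and 0.00 in SNB19, beside -0.02 and -0.01 for all genes.

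PROCR, the receptor that presents protein C to the thrombin and thrombomodulin complex, was called lower for the mean of both siRNAs in both lines. Its SF539 values were 8.95 and 8.79 with siRNA#1, 8.47 and 7.90 with siRNA#2, and 9.06 and 9.21 with scramble. PROCR fell by 0.60 ± 0.14 in SF539 (limma adjusted p = 0.0257) and by 0.64 ± 0.14 in SNB19 (limma adjusted p = 0.00648). In SF539 the change of PROCR with siRNA#1 alone was -0.26 ± 0.16 and not called (limma adjusted p = 0.475), and with siRNA#2 alone it was -0.95 ± 0.16 (limma adjusted p = 0.00493). The SF539 call was lost without any 1 scramble or siRNA#1 array (adjusted p from 0.0503 to 0.151), and the SNB19 call without scramble replicate 2 (adjusted p = 0.0538). F2R, the thrombin receptor PAR1, was not called in SF539 (0.74 ± 0.22, limma adjusted p = 0.0625) or in SNB19 (-0.15 ± 0.22, limma adjusted p = 0.654).

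Of 19 genes of thrombin, protein C and fibrinolysis, THBD left out, 1 was called higher and 4 lower in SF539 (5.80% and 4.01% of all genes), and 6 higher and 5 lower in SNB19 (15.5% and 17.4%). In SF539 the protease inhibitor gene SERPINE2 and the urokinase receptor gene PLAUR changed by -0.92 ± 0.10 and -1.02 ± 0.13 (limma adjusted p = 0.000792 and 0.00139), urokinase itself, PLAU, by -0.33, and the protein C cofactor gene PROS1 by 0.70. PLAU lost its call without any 1 scramble or siRNA#1 array (adjusted p from 0.0567 to 0.112) and PROS1 without scramble replicate 2 (adjusted p = 0.0803). In SNB19 the protein C inhibitor gene SERPINA5 rose by 1.84, PROS1 by 1.44 and the plasminogen-binding annexin gene ANXA2 by 0.59, and SERPINE2 fell by 1.01. The list's median change was -0.15 in SF539 and -0.08 in SNB19.

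**Figure D4:**
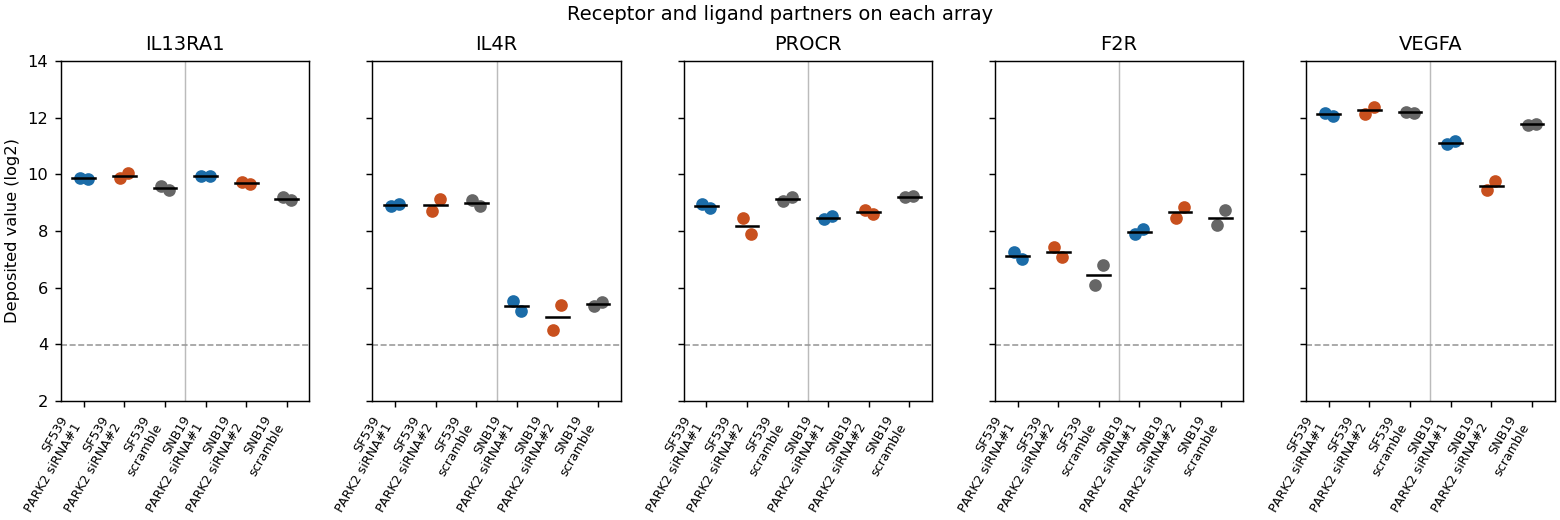
Deposited log2 values of IL13RA1, IL4R, PROCR, F2R and VEGFA on each array, drawn as in the plot of the 4 probe sets (points are arrays, bars group means, the dashed line the lower quartile). IL13RA1 is higher with both siRNAs in both lines, IL4R differs between the lines, and VEGFA is lower with the siRNAs in SNB19.

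VEGFA, which induces ESM1 in endothelium, stood at about the same level in the SF539 groups. Its SF539 values were 12.15 and 12.08 with siRNA#1, 12.14 and 12.39 with siRNA#2, and 12.20 and 12.17 with scramble, a change of 0.00 ± 0.10 (limma adjusted p = 0.996). In SNB19, where ESM1 was at background, VEGFA fell by 1.41 ± 0.10 (limma adjusted p = 6.78e-06). That mean joins -0.65 ± 0.12 with siRNA#1 and -2.18 ± 0.12 with siRNA#2, which differed by -1.52 ± 0.12 (siRNA#2 minus siRNA#1, limma adjusted p = 0.000119). Of 20 VEGF and angiogenic genes 2 were called higher and 2 lower in SF539, beside 5.80% and 4.01% of all genes, and 5 higher and 4 lower in SNB19, beside 15.5% and 17.4%. The SF539 genes were ANGPT1, a ligand of TEK, at 1.17, the co-receptor gene NRP2 at 0.38, VEGFC at -0.53 and the HGF receptor gene MET at -0.29. NRP2 was not called once either scramble array was removed (adjusted p = 0.053 and 0.0506), nor was MET without any 1 scramble or siRNA#1 array (adjusted p from 0.0642 to 0.182), and both with the mean of their probe sets (adjusted p = 0.391 and 0.385). In SNB19 VEGFC, the growth factor gene FGF2 and ANGPT2, a TEK ligand, changed by -2.04, -1.06 and 0.94. The list's median change was 0.01 in SF539 and 0.06 in SNB19.

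Most other proteoglycan genes were not called in SF539. Of 21 core protein genes 3 were called higher, SDC2 by 1.20 ± 0.16, LUM, which is also on the fibroblast list, by 0.98 and SDC1 by 0.36, and 1 lower, CD44 at -0.31. Among all genes 5.80% were called higher and 4.01% lower. LUM and CD44 lost their calls without any 1 scramble or siRNA#1 array (adjusted p from 0.0772 to 0.202 and from 0.0997 to 0.188). SDC1 lost its call without scramble replicate 2 or either siRNA#1 array (adjusted p from 0.0637 to 0.167), and CD44 with the replicate block (adjusted p = 0.0591). In SNB19, where 15.5% of all genes were called higher and 17.4% lower, 2 were higher and 4 lower, the syndecan gene SDC2 and agrin, AGRN, changing by -1.18 and -0.62, and FMOD and SDC1 by 0.41 and 0.27. AGRN lost its call without SNB19 scramble replicate 1 (adjusted p = 0.0867), FMOD without that array, siRNA#1 replicate 1 or siRNA#2 replicate 2 (adjusted p from 0.0748 to 0.267), and SDC1 without any 1 array other than scramble replicate 1 (adjusted p from 0.0697 to 0.273) and with its probe sets averaged (0.01, adjusted p = 0.957). The core protein genes had a median change of 0.13 in SF539 and 0.20 in SNB19.

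Of 10 measured genes that build chondroitin and dermatan sulfate, the kind of chain ESM1 carries, 1 was called higher and 1 lower in SF539, and 4 and 4 in SNB19. The shares of all genes called higher and lower were 5.80% and 4.01% in SF539, and 15.5% and 17.4% in SNB19. The glucuronosyltransferase gene B3GAT3 changed by -0.53 in SF539 and -0.65 in SNB19, and the xylose kinase gene FAM20B by 0.38 and 0.77. FAM20B lost its SF539 call without scramble replicate 1 or 2 or siRNA#1 replicate 1 (adjusted p from 0.0748 to 0.161). In SNB19 the sulfotransferase genes CHST15 and UST changed by -0.77 and 0.51. The list's median change was 0.10 in SF539 and 0.00 in SNB19.

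Of 25 regulators of transcription chosen for links to these genes, 3 were called higher and 1 lower in SF539 (all genes, 5.80% and 4.01%), with a median change of 0.07. JUND, an AP-1 subunit, changed by 0.61, the retinoic acid receptor gene RARB by 0.90, ETS2 by 0.43 and ETS1 by -0.48. JUND lost its call without any 1 scramble or siRNA#1 array, RARB without scramble replicate 2 or siRNA#1 replicate 1, ETS2 without either scramble array or siRNA#1 replicate 2, and ETS1 without scramble replicate 2 or either siRNA#1 array (adjusted p from 0.053 to 0.187). The means of the probe sets of JUND and RARB changed by 0.25 and 0.14 (adjusted p = 0.265 and 0.478). In SNB19 2 were higher and 6 lower (all genes, 15.5% and 17.4%), with a median of -0.15, among them ETS2 at -1.60, FOSL1, another AP-1 subunit, at -1.12, KLF6 at -1.11 and WWTR1, which encodes TAZ, at 0.59, or 0.13 (adjusted p = 0.38) with its probe sets averaged.

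Of 21 genes of the inflammatory cytokine response, 3 were called higher and 4 lower in SF539, with a median of -0.13, and 1 higher and 7 lower in SNB19, with a median of -0.20. Of all genes 5.80% were called higher and 4.01% lower in SF539, and 15.5% and 17.4% in SNB19. CXCL8, which encodes the chemokine IL-8, changed by -1.55 in SF539 and -1.41 in SNB19. In SF539 CXCL3 changed by -1.93, VCAM1, which encodes an adhesion molecule, by 2.03 and TGFBI, a matrix gene, by 0.51, CXCL3 losing its call without scramble replicate 1 (adjusted p = 0.0611). In SNB19 IRF1, IL1R1 and TNFRSF1A changed by -1.86, -1.11 and -0.65, and IL1R1 by -0.48 with its probe sets averaged. With the 6 SF539 arrays fitted alone, 5 of the 25 genes named above as called in SF539 were still called, SERPINE2, PLAUR, ANGPT1, SDC2 and CXCL8, and 20 were not (adjusted p from 0.05 to 0.225). With array weights JAK2, PLAU, MET, SDC1, CD44 and ETS1 were not called (adjusted p from 0.0558 to 0.123).

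**Figure D5:**
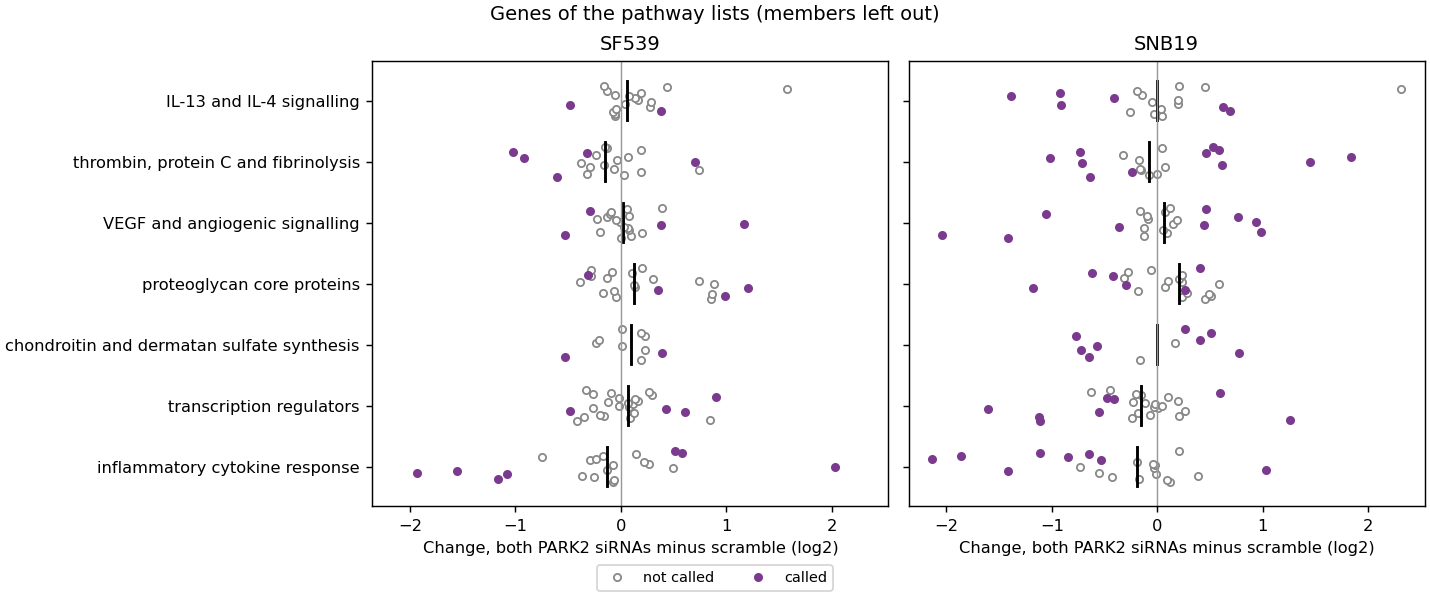
Change with both PARK2 siRNAs against scramble (log2) of each gene of the 7 pathway lists in SF539 (left) and SNB19 (right), filled where called by limma at an adjusted p under 0.05 and open where not, with the list median as a bar. The SF539 medians lie between -0.15 and 0.13.

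None of the nearest measured genes on either side of the 3 was called in either line. ESM1 on chromosome 5 has HSPB3 and GZMK as nearest measured neighbours, THBD on chromosome 20 has SSTR4 and CD93, and IL13RA2 on chromosome X has HTR2C and PLS3. The gaps were 521.5, 38.7, 6.4, 29.7, 93.9 and 543.6 kb in that order. Other protein-coding genes start between ESM1 and HSPB3 and between IL13RA2 and PLS3. With both siRNAs in SF539 the neighbours had differences of 0.11, 0.12, -0.08, 0.15, -0.07 and -0.01 from scramble (limma adjusted p from 0.522 to 0.935). In SNB19 the adjusted p lay between 0.0951 and 0.741 (limma). PLS3, at 11.66 with scramble in SF539, was the only one of them above the array median there. HSPB3, SSTR4 and HTR2C, at 3.74, 3.83 and 2.83, lay under the lower quartile, so a fall could not be seen.

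The genes most like each of the 3 were ranked by Pearson correlation over the 6 group means, among 2516 genes whose group means spanned at least 1. These values are a description, since the means share arrays and are led by the difference between the lines. For THBD they were FABP5 (r = 0.999), CSTF2, KRR1, ODF2 and AOX1. The fatty acid binding protein gene FABP5 averaged 9.18 with siRNA#1, 7.67 with siRNA#2 and 9.01 with scramble in SF539, and 2.95, 2.89 and 3.06 in SNB19, and so shared both the line difference and the lower siRNA#2 value of THBD. For ESM1 they were SMAGP (r = 0.991), STIP1, KRT33A, SPINT2 and the cytokine gene IL1B (r = 0.971). IL1B averaged 6.10 with siRNA#1, 5.48 with siRNA#2 and 6.96 with scramble in SF539. For IL13RA2 they were FHL2 (r = 0.996), CHRNA5, the Wnt antagonist gene DKK1 (r = 0.992), EZR and ARHGAP29. DKK1 averaged 8.51, 7.78 and 9.43 in SF539 with siRNA#1, siRNA#2 and scramble, and 11.96, 11.64 and 12.98 in SNB19.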

How the data were processed

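The deposited series table holds log2 values of 16376 probe sets on 12 arrays. The authors used Partek, per the submitters' processing notes. How background, normalization and probe set summary were handled, and on which build, is not given in the sources used here. Of the probe sets 14038 had 1 gene in the platform annotation, 792 several and 1546 none, and 14028 were renamed by Entrez identifier through the RefSeq table of GRCh38.p14. Each gene took its brightest probe set over all arrays (8545 genes). A model of 6 groups was fitted with limma 3.58.1 (lmFit, eBayes; R 4.3.3; residual degrees of freedom 6, prior 3.65) and tested on both sides, with Benjamini-Hochberg adjustment over all genes at 0.05 (called), and checked on simulated data. "Both siRNAs" is their mean minus scramble, and errors of changes are SE of the fit, from a spread of each gene shared by all 6 groups.

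The genes and the 7 pathway and 5 marker lists were chosen with earlier results of these data known. Named genes are the 3 genes, IL4R, IL13RA1, PROCR, F2R and VEGFA, nearest measured neighbours, the 5 best correlated genes for each, and up to 4 called genes per list and line by smallest p. ENG, CDH5, TEK, MMRN1 and the glial, fibroblast and smooth muscle markers named were singled out after their values were seen. The planned test of the 3 genes between the scramble groups is not reported, since it uses the SF539 scramble arrays. Arrays were not paired by replicate number in the main fit. Plots used matplotlib 3.10.9.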

Additional observations from a re-analysis of the deposited data

Results flagged for a closer look

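Of 14 partner and list genes whose changes are given for both lines, 5 differed between the lines in the limma test of the difference itself (SF539 change minus SNB19 change, both siRNAs against scramble, 2 arrays per group). That test was added after the data were seen, and 1629 of 8545 genes passed it. The list genes among the 14 were named for small p in the changes that make up this difference. Their count can therefore not be set against that of all genes. SDC2 differed by 2.39 ± 0.22 (limma adjusted p = 6.64e-05), with changes of 1.20 in SF539 and -1.18 in SNB19. ETS2 differed by 2.03 ± 0.14 (limma adjusted p = 6.61e-06), with changes of 0.43 and -1.60. VEGFC differed by 1.51 ± 0.13 (limma adjusted p = 3.59e-05) and VEGFA by 1.42 ± 0.15 (limma adjusted p = 0.000152). VEGFC changed by -0.53 in SF539 and -2.04 in SNB19, and VEGFA by 0.00 and -1.41. PROS1 differed by -0.75 ± 0.18 (limma adjusted p = 0.0188), with changes of 0.70 and 1.44. For PROCR the difference was 0.03 ± 0.20 (limma adjusted p = 0.936). No group has the 4 arrays needed to look for an array that stands apart.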

How the results depend on the processing

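The tested SNB19 changes of ESM1, THBD and IL13RA2 kept their side of the threshold under every alternative run, and the uncalled ones of ESM1 and THBD varied in sign. The SF539 changes of these genes have no test, and with 2 arrays a group their ranges on leaving out 1 array only restate the spread: -3.47 to -2.61 for ESM1 and -2.45 to -2.17 for IL13RA2 with both siRNAs, -2.64 to -1.47 for THBD with siRNA#2 and -0.29 to 0.06 for THBD with siRNA#1. ESM1 is among the dimmest 40% of genes and has no value with those left out. IL13RA2 in SNB19 with both siRNAs was called under every alternative run (adjusted p from 8.16e-05 to 0.00871), with changes from -0.97 to -0.91 on leaving out 1 array.

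Counts of called genes depended more on the processing, and the cause was not tested. With every probe set on its own they were 4679, 3750 and 4219 in SNB19 (both siRNAs, siRNA#1, siRNA#2), 7268 between the scramble groups, and 1488 and 2134 in SF539 (both siRNAs, siRNA#2). Array weights gave 1427 for siRNA#2 minus siRNA#1 in SNB19, and 485, 350 and 24 in SF539 for siRNA#1, siRNA#2 and siRNA#2 minus siRNA#1. The 6 arrays of a line alone gave 1122 for siRNA#2 minus siRNA#1 in SNB19, and 165, 1 and 308 in SF539 for both siRNAs, siRNA#1 and siRNA#2. For siRNA#2 minus siRNA#1 in SF539 limma then called 0 genes, with 1194 at an unadjusted p under 0.05, and 356 with the dimmest genes left out. Leaving out 1 array gave 1741 to 2343, 1405 to 1551, 1593 to 1845 and 134 to 176 calls in SNB19 (both siRNAs, siRNA#1, siRNA#2, siRNA#2 minus siRNA#1). In SF539 it gave 371 to 1973, 16 to 214, 615 to 2593 and 3 to 2303 for the same comparisons. The highest SF539 counts other than for siRNA#1 were those without siRNA#2 replicate 1.

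The deviations of same-numbered arrays correlated with r from -0.18 to 0.11 over 15 pairs of groups. Whether such arrays share a culture or batch is not stated, and these r cannot settle it. The replicate block gave 2761 calls in SNB19 and 779 in SF539 with both siRNAs, left IL13RA2 in SNB19 called (adjusted p = 0.0012), and among the named genes ended only the CD44 call.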

Other observations

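The lines held reversed combinations of IL-13 receptor chains with scramble siRNA. SF539 had IL4R at 8.99 ± 0.16 and IL13RA2 at 6.35 ± 0.11, and SNB19 had IL4R at 5.42 ± 0.11 and IL13RA2 at 11.36 ± 0.02 (SD, n = 2 each). IL13RA1 averaged 9.52 ± 0.10 in SF539 and 9.15 ± 0.05 in SNB19. These are levels of different probe sets, so only the order of the lines within each gene can be read.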
